A study of Homo sapiens with 2 samples.

Results

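Immediate-early transcription factor genes answer growth and stress signals without new protein synthesis. The 10 genes described here are FOS, FOSB, FOSL1, FOSL2, JUN, JUNB, JUND, EGR1, IER2 and MYC. They were taken by symbol as the subunits of activator protein 1 (AP-1) with EGR1, IER2 and MYC. Of the 10, 9 are among the 16424 genes with deposited values, and FOSB is not listed and was not analysed here. All 9 had a mean level of at least 1 CPM, the tag count scaled to library size, as had 13724 of the listed genes, and those 13724 are the genes used for comparison.

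Cap analysis of gene expression (CAGE) counts 1 tag per capped 5′ end of an RNA, so that levels of different genes can be compared without a correction for transcript length. The cells were PLC/PRF/5, an established human hepatoma line, kept for 6 h in medium without additive (non-treated, 0 µg/ml) or with 3 µg/ml M2BPGi, the Mac-2-binding protein glycan isomer. Each condition has 1 library, so no difference has a replicate check and no test of the conditions was possible. Read back from the CPM steps, the non-treated library held 24040209 and the M2BPGi-treated library 24862941 tags, and 1 tag was worth 0.0416 and 0.0402 CPM.

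The labelled cell type was checked against 12 hepatocyte and hepatoma genes, and all 12 are listed. The level of AFP, the fetal liver protein, was 695 CPM in the non-treated and 566 CPM in the M2BPGi-treated library. Fibrinogen beta (FGB) was at 950 and 623 CPM, SERPINA1 at 671 and 455 CPM and APOA2 at 241 and 261 CPM. GPC3 (62.5 and 52.2 CPM), HNF4A (39.1 and 43.8 CPM), APOB (15.6 and 11.1 CPM) and FOXA2 (12.8 and 18.4 CPM) were lower. Albumin (ALB) was low, at 8.82 and 7.04 CPM, as were TF (6.61 and 4.02 CPM), APOA1 (4.37 and 4.63 CPM) and TTR (3.62 and 2.49 CPM). Of 12 genes of stromal, immune, endothelial and red cells, 5 are listed, with a summed level of 28.7 CPM in the non-treated and 26.8 CPM in the M2BPGi-treated library. The most abundant was CD68, at 21.2 and 20.5 CPM, and the leukocyte gene PTPRC was at 0 in both libraries, which allows up to 0.125 and 0.121 CPM (3 tags). The log2 ratio of the 12 hepatoma genes between the libraries was above 0 in 4 and below 0 in 8, and its median was −0.29. Over all 13724 genes, 42.9% were above 0 and the median was −0.05. FGB (−0.61) and TF (−0.60) were past 1.5-fold lower, beside 4.04% of all genes. Both were short of 1.5-fold once the median or the trimmed mean of all genes was set to 0. The highest ratios were those of FOXA2 (0.49, interval 0.31 to 0.73) and HNF4A (0.16, 0.04 to 0.29), and those of APOA2, APOB and SERPINA1 were 0.11, −0.46 and −0.56. Their part in the members' values was not tested.

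FOS and JUN proteins pair through leucine zippers into AP-1 dimers, in which a FOS protein needs a JUN partner while JUN proteins can also pair with each other. Transcription of FOS, EGR1 and IER2 is switched on within minutes by ERK and p38 signalling through serum response factor (SRF) and CREB, and it is shut off again soon after. In the liver, AP-1 and MYC are known for their part in regeneration after injury and in tumour growth.

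Since CAGE tags mark transcription starts, the bases before the start of the members are shown first. Of the 10 genes, 8 matched the RefSeq promoter table (GRCh38.p14) by symbol, that is, all but FOSL1 and MYC. The 250 bases before each start were searched on both strands. The motifs were the CArG box bound by SRF, CRE (TGACGTCA), TRE (TGANTCA), E-box (CACGTG), EGR site (GCGNGGGCG), TATA box (TATAAA), ETS site (CCGGAA) and GC box (GGGCGG). An EGR site followed by G also contains a GC box. A few of the promoters are printed 5′ to 3′ on the strand of the gene, with CArG box, CRE, TRE and TATA box matches in capitals: those of the most abundant pair, JUND (chr19:18281623-18281872, minus strand) and JUNB (chr19:12791236-12791485, plus strand), and those of the classical signal-responsive pair, FOS (chr14:75278578-75278827, plus strand) and EGR1 (chr5:138465229-138465478, plus strand).
JUND promoter: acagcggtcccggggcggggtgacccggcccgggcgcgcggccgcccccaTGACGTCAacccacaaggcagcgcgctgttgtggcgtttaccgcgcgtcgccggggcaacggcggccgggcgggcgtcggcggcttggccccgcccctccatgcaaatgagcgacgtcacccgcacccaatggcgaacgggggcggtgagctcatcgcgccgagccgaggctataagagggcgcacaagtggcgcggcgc
JUNB promoter: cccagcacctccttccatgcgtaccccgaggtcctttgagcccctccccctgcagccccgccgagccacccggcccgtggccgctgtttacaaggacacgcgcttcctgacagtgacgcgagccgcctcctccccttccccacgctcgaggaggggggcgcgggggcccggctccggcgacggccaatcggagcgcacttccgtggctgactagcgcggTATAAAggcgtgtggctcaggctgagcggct
FOS promoter: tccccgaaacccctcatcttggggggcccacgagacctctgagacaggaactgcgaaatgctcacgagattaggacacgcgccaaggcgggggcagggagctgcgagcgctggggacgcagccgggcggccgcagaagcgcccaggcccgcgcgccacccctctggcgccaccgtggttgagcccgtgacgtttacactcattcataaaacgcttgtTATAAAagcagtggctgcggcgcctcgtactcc
EGR1 promoter: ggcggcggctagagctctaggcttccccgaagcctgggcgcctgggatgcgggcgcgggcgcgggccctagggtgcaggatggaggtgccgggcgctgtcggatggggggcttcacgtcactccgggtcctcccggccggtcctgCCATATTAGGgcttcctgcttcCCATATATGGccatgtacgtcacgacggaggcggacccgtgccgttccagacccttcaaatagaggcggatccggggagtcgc

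EGR1 was the 1 member of the 8 with a CArG box in this window, and it has 2, which begin 105 and 83 bases before the start. A CArG box is found in 1.16% of the 35116 promoters in the table. JUND was the 1 member with the full CRE, TGACGTCA, 200 bases before its start, against 1.65% of all promoters. Sites that differ from the stated letters were not searched, so a member without a match can still have a variant site. A TATA box stands about where this element is usually found in FOS, FOSB and JUNB, beginning 33, 30 and 31 bases before the start, and 10.7% of all promoters have one in the window. A GC box was found in 6 of the 8 (42.6% of all promoters), with 5 matches in JUND. An ETS site was found in FOSB and IER2 (14.5% of all promoters), and an EGR site in EGR1 (8.41%). None of the 8 had a TRE (6.57%) or an E-box (6.34%) in the 250 bases, which says nothing of sites elsewhere. The windows were rich in G and C, from 62.0% in JUN to 74.8% in JUND, with a median of 58.0% over all promoters.

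The members differed far more from each other than between the libraries. In non-treated cells the order of levels was JUND, JUNB, FOSL2, MYC, JUN, EGR1, FOSL1, IER2 and FOS, and the highest was 328 times the lowest. In M2BPGi-treated cells the order was the same except that MYC stood before FOSL2, and the highest was 549 times the lowest. Both ratios rest on the 33 and 23 tags of FOS. Exact 95% (Clopper-Pearson) intervals, which cover counting error only, overlapped between FOSL2 and MYC in both libraries. In non-treated cells they also overlapped between JUN and EGR1 and between FOSL1 and IER2, whereas all other neighbours in the order were separate. The median over the 13724 genes was 21.3 CPM in the non-treated and 20.4 CPM in the M2BPGi-treated library, and 5 of the 9 members were above it in each library.

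**Figure D1:**
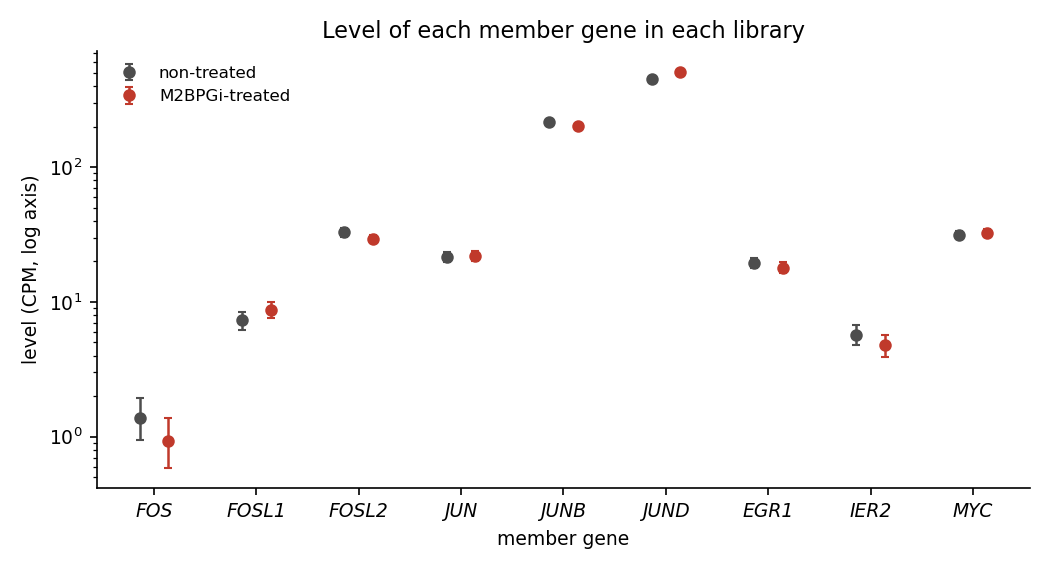
Level of each member gene in CPM (log axis) in the non-treated library (grey) and the M2BPGi-treated library (red). Points are the values of 1 library each and bars are exact 95% intervals for counting error. JUND and JUNB lie above 200 CPM in both libraries and FOS lies near 1 CPM.

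None of the 9 members was at least 1.5-fold higher or lower in M2BPGi-treated cells. Both libraries were taken at 6 h, so a change that had ended before then would not be seen. The same fold was passed upwards by 1.6% and downwards by 4.04% of all 13724 genes. Log2 ratios of M2BPGi-treated to non-treated cells were taken after adding 1 CPM, so that changes of low genes come out too small, and they ran from −0.30 (FOS) to 0.23 (FOSL1). The ratio was above 0 in 4 members and below 0 in 5. Their median was −0.07, beside −0.05 over all genes, of which 42.9% were above 0. Each of the 9 was inside the central 95% of all genes, −0.67 to 0.52.

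A finer reading comes from the interval of the tag ratio, computed without an added value. It was above 0 in 1 member, JUND, and below 0 in 2, FOSL2 and JUNB. Over all genes it was above 0 in 22.8% and below 0 in 31.5%. Setting the median log2 ratio of all genes to 0 changed the split among members to 2 above (JUND and FOSL1) and 0 below, beside 27.7% above and 26.0% below over all genes. Setting their trimmed mean to 0 left 1 member above (JUND) and 0 below, beside 25.5% and 28.4% over all genes. The intervals of FOSL2 and JUNB thus span 0 under these scalings. With CPM computed over the tags of listed genes, they stayed below 0 and JUND above, beside 22.4% above and 31.9% below over all genes. Where the shift between the libraries comes from was not tested. With the median at 0, the genes past 1.5-fold were 298 higher and 412 lower, in place of 219 higher and 555 lower, and still 0 members were among them.

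**Figure D2:**
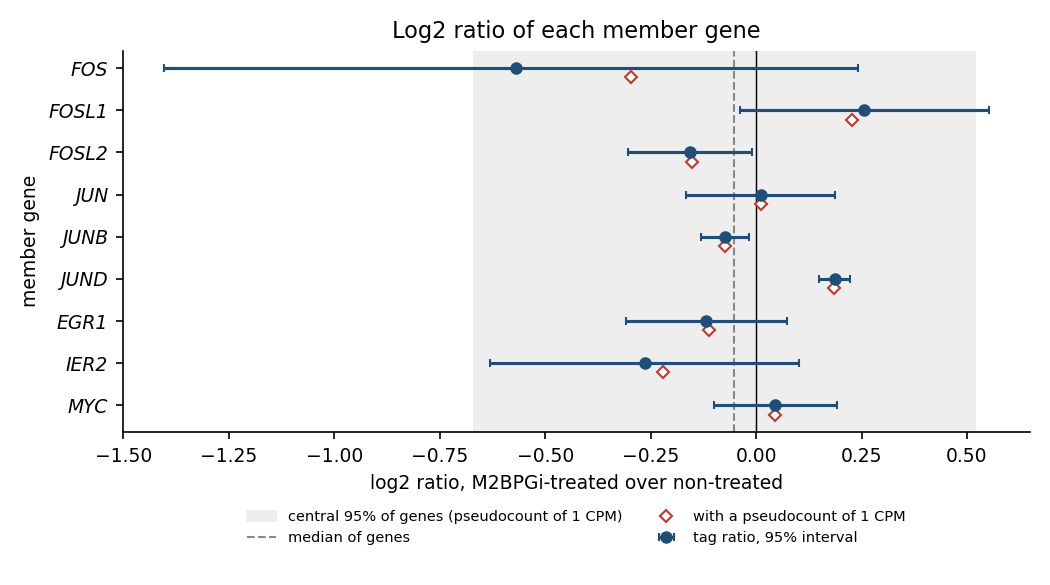
Log2 ratio of each member gene, M2BPGi-treated over non-treated. Filled points with bars are the tag ratio and its exact 95% interval for counting error, open diamonds are the ratio after adding 1 CPM, the grey band is the central 95% of the 13724 genes and the dashed line is their median. All 9 diamonds lie in the band. The bars of FOSL2 and JUNB lie below 0 as deposited but not after the median of all genes is set to 0.

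Among the FOS subunits, FOS (ENSG00000170345), the founding member and a short-lived partner of JUN proteins, had the lowest level of the 9. It was at 1.37 CPM (33 tags) in the non-treated and 0.93 CPM (23 tags) in the M2BPGi-treated library. The log2 ratio was −0.30, and the interval of the tag ratio, −1.40 to 0.24, spans 0. At this depth a fall beyond 2-fold and a small rise are both inside the counting error of FOS. In bulk RNA a lower level in each cell and fewer cells with the transcript cannot be told apart, which applies to every value here.

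FOSL1 (ENSG00000175592, also called FRA1), a FOS-related protein without the strong activation domain of FOS, was at 7.28 CPM (175 tags) in the non-treated and 8.69 CPM (216 tags) in the M2BPGi-treated library. The log2 ratio was 0.23 (interval of the tag ratio −0.04 to 0.55), with 83.8% of all genes lower. It was the highest of the members with 1 CPM added but not with 5 CPM, when it was 0.16 beside 0.18 for JUND. The first 500 nt of a FOSL1 transcript match the pseudogene FOSL1P1 over 322 nt at 96.0% identity, and how tags that fit both were assigned is not given in the sources used here. FOSL1P1 is not listed. No other member had such a copy.

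FOSL2 (ENSG00000075426, FRA2) was the most abundant FOS subunit, at 32.7 CPM (787 tags) in the non-treated and 29.4 CPM (730 tags) in the M2BPGi-treated library. Its level was 23.9 times that of FOS in non-treated and 31.6 times in M2BPGi-treated cells. Its log2 ratio was −0.15, with an interval of −0.30 to −0.01. Together, the listed FOS subunits gave 41.4 CPM in the non-treated and 39.0 CPM in the M2BPGi-treated library, with a log2 tag ratio of −0.09 (−0.22 to 0.04).

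Among the JUN subunits, JUN (ENSG00000177606), whose protein is activated by JNK, was at 21.6 CPM (519 tags) in the non-treated and 21.8 CPM (541 tags) in the M2BPGi-treated library. The log2 ratio was 0.01 (−0.17 to 0.19), and 0.06 with the median of all genes set to 0.

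JUNB (ENSG00000171223), a weaker activator that can hold JUN in check, was at 214 CPM (5149 tags) in the non-treated and 203 CPM (5058 tags) in the M2BPGi-treated library. This gave a log2 ratio of −0.07 (−0.13 to −0.02), and 47.1% of all genes were lower, so that JUNB was in the middle of the distribution. Its promoter, printed above, has the TATA box but no match to the CArG box or the full CRE.

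JUND (ENSG00000130522), the JUN protein that is present at a steady level in resting cells, had the highest level of the 9. It was at 449 CPM (10788 tags) in the non-treated and 511 CPM (12694 tags) in the M2BPGi-treated library, and stood at rank 301 and 282 among the listed genes. The log2 ratio was 0.19 (0.15 to 0.22), and this was the 1 member whose interval was above 0 under each of the 3 other scalings as well. The size is modest, since 80.3% of all genes were lower and the remainder were as high or higher. Its promoter is the one with the full CRE and 5 GC boxes.

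As AP-1 works as dimers, the subunits were also summed. The 6 listed subunits gave 726 CPM in the non-treated and 775 CPM in the M2BPGi-treated library, with a log2 tag ratio of 0.09 (0.06 to 0.12). JUN subunits exceeded FOS subunits 16.5 times in non-treated and 18.9 times in M2BPGi-treated cells. JUND made up 61.8% of the AP-1 tags (61.1 to 62.5%) in non-treated and 65.9% (65.2 to 66.6%) in M2BPGi-treated cells, and JUNB made up 29.5% (28.8 to 30.2%) and 26.3% (25.6 to 26.9%). These shares do not depend on how the libraries are scaled to each other. The ratio of JUND to JUNB was 2.10 in non-treated and 2.51 in M2BPGi-treated cells. Without JUND, the sum was 277 and 264 CPM, so the higher sum in M2BPGi-treated cells rested on JUND.

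**Figure D3:**
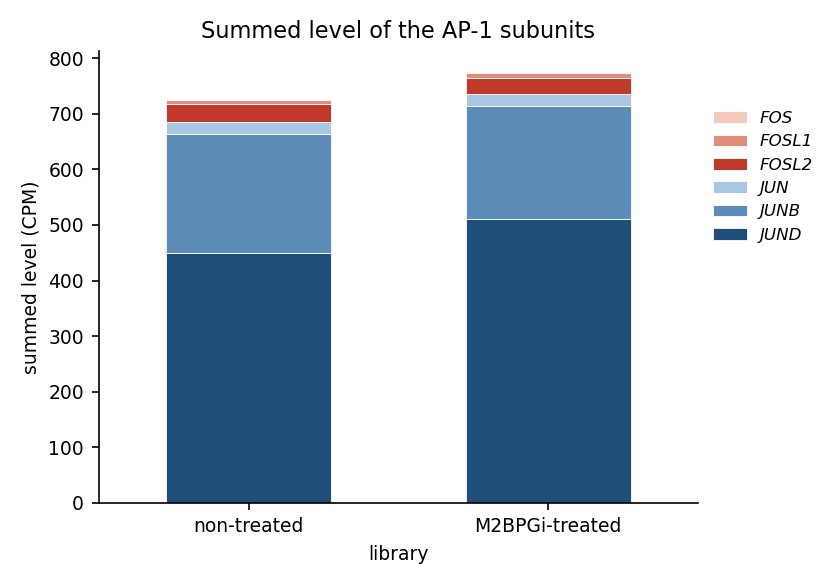
Summed level of the 6 listed AP-1 subunits in CPM in each library, with JUN subunits in blue and FOS subunits in red. The total was 726 CPM in the non-treated and 775 CPM in the M2BPGi-treated library. JUND and JUNB fill most of both bars, and FOS is too low to be seen.

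EGR1 (ENSG00000120738), a zinc-finger activator that is among the first genes to answer serum, was at 19.5 CPM (468 tags) in the non-treated and 17.9 CPM (446 tags) in the M2BPGi-treated library. Its log2 ratio was −0.11 (−0.31 to 0.07). Its interval spans 0, and its promoter is the one with both CArG boxes printed above.

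IER2 (ENSG00000160888), a small nuclear protein of the immediate-early response, was at 5.70 CPM (137 tags) in the non-treated and 4.75 CPM (118 tags) in the M2BPGi-treated library. The log2 ratio was −0.22 (−0.63 to 0.10). Its low level leaves a wide interval, as for FOS.

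MYC (ENSG00000136997), which drives ribosome production and cell growth together with MAX, was at 31.4 CPM (755 tags) in the non-treated and 32.4 CPM (806 tags) in the M2BPGi-treated library. This gave a log2 ratio of 0.04 (−0.10 to 0.19). A rise of MYC by 1.5-fold lies outside this interval of counting error.

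The partners of AP-1 outside the FOS and JUN families, such as ATF and MAF proteins, lay on both sides of 0. Of 12 such genes, 11 are listed and 10 had a mean level of at least 1 CPM, of which 6 were above 0, 4 below and 0 past 1.5-fold (1 with the median of all genes set to 0). They ran from −0.45 to 0.55, and the interval was above 0 in 3 and below 0 in 2 of these 10, beside 22.8% and 31.5% over all genes. Their median log2 ratio was 0.01, beside −0.05 over all genes. JDP2, a repressor that pairs with JUN proteins, was at 12.1 CPM in the non-treated and 16.3 CPM in the M2BPGi-treated library, a log2 ratio of 0.40. MAFG was at 36.2 and 26.2 CPM, a log2 ratio of −0.45. Those of MAFK, MAFF, ATF7 and MAF were 0.10, 0.02, −0.11 and −0.32.

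The regulators that act on the promoters of immediate-early genes had a median log2 ratio of −0.12 over 16 genes of the SRF and CREB systems, with 7 above 0 and 9 below. The interval was above 0 in 1 (6.25%) and below 0 in 5 (31.3%), beside 22.8% and 31.5% over all genes. With the median of all genes set to 0 it was above 0 in 3 and below 0 in 3, beside 27.7% and 26.0%. These counts were 3 and 5 with the trimmed mean of all genes set to 0. The median was −0.05 when genes with near-identical copies were left out and −0.07 with the median of all genes set to 0. CRTC1, a coactivator of CREB, was the 1 gene past 1.5-fold. It fell from 18.6 CPM in the non-treated to 11.4 CPM in the M2BPGi-treated library, a log2 ratio of −0.66 (−0.92 to −0.49). SRF itself was at 17.6 and 18.8 CPM and CREB1 at 31.6 and 27.8 CPM. ELK3, a ternary complex partner of SRF, was at 16.2 CPM and 21.0 CPM, a log2 ratio of 0.35. Those of CRTC3, ELK1, ELK4 and MKL2 were 0.16, 0.12, −0.21 and −0.28.

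Of the 18 genes of the ERK and JNK cascades, which signal to AP-1, 13 were above 0 and 5 below, beside 42.9% of all genes above 0, with a median of 0.11. The interval was above 0 in 9 and below 0 in 2 of the 18, beside 22.8% and 31.5% over all genes. With the median of all genes set to 0 it was above 0 in 11 and below 0 in 1, beside 27.7% and 26.0%. The difference between this list and the others was not tested. MAPK9, which encodes a JNK, was at 49.5 CPM in the non-treated and 61.7 CPM in the M2BPGi-treated library, a log2 ratio of 0.31, and MAPK3, which encodes an ERK, was at 46.4 CPM and 56.8 CPM, a log2 ratio of 0.28. The 3 lowest with a mean level of at least 10 CPM were BRAF (−0.23), MAPK8 (−0.18) and ARAF (−0.08).

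Other immediate-early genes had a median log2 ratio of −0.08 over 22 of the 25 listed, with 8 above 0, 14 below and 0 past 1.5-fold. The interval was above 0 in 2 (9.09%) and below 0 in 7 (31.8%), beside 22.8% and 31.5% over all genes. With the median of all genes set to 0 it was above 0 in 4 and below 0 in 6, beside 27.7% and 26.0%. The ratio was then above 0 in 10 genes and below 0 in 12, and the median of the list was −0.02. Among genes with a mean level of at least 10 CPM the median of the list was −0.14, beside −0.03 for the members. The nuclear receptors of the NR4A family were lower in all 3 genes. NR4A1 was at 96.2 CPM in the non-treated and 72.2 CPM in the M2BPGi-treated library, a log2 ratio of −0.41 (−0.50 to −0.32). NR4A2 was at 22.2 and 15.7 CPM, a log2 ratio of −0.47, and NR4A3 at 4.41 and 2.82 CPM, a log2 ratio of −0.50, and the direction was the same under each scaling. GADD45B, a stress sensor, was at 32.8 and 23.8 CPM, a log2 ratio of −0.45. On the other side, IER3 was at 107 and 117 CPM, a log2 ratio of 0.13, and CYR61, a matricellular growth factor, at 19.3 and 22.2 CPM, a log2 ratio of 0.19, and ZFP36L1 had 0.06. The EGR1 relatives were at or near 0, with 0 tags of EGR2 in both libraries and 1 tag of EGR3 in non-treated cells.

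**Figure D4:**
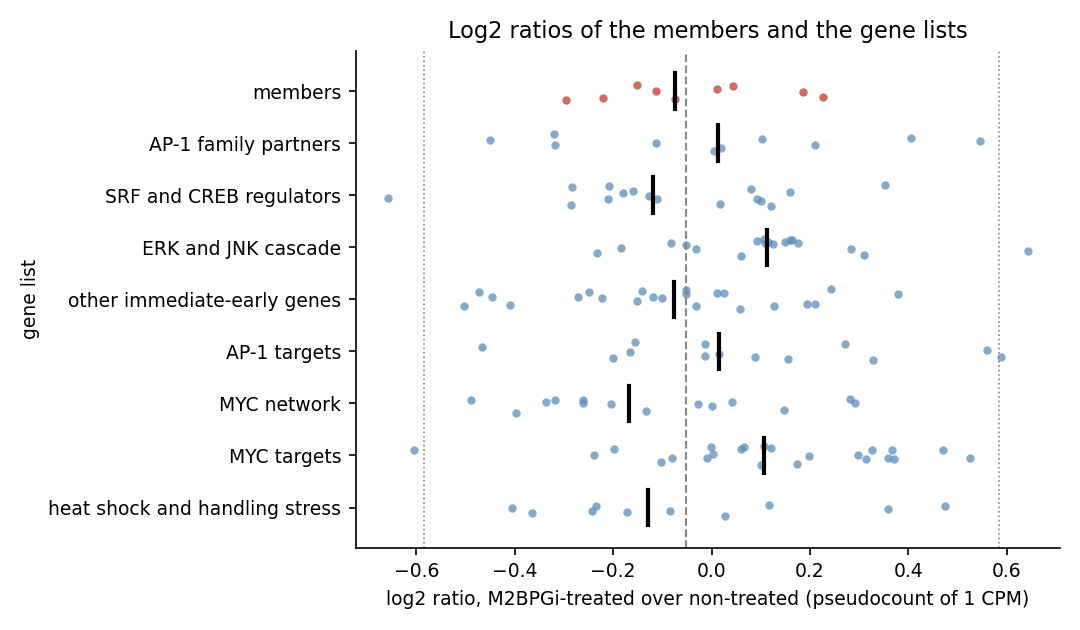
Log2 ratio, M2BPGi-treated over non-treated, of the 9 members (red) and of the genes of 8 lists (blue) with a mean level of at least 1 CPM. Black bars are medians, the dashed line is the median of all genes (−0.05) and dotted lines mark 1.5-fold. The members lie between −0.30 and 0.23, all inside the dotted lines.

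Of 13 genes with well-known AP-1 sites and a mean level of at least 1 CPM, 7 were above 0 and 6 below, with a median of 0.01, and the interval was above 0 in 5 (38.5%) and below 0 in 3 (23.1%), beside 22.8% and 31.5% over all genes. Setting the median of all genes to 0 made this 9 above and 4 below, with 6 intervals above and 2 below (46.2% and 15.4%, beside 27.7% and 26.0%) and 2 genes past 1.5-fold higher. FTH1, the ferritin heavy chain, rose from 829 CPM in the non-treated to 1246 CPM in the M2BPGi-treated library, a log2 ratio of 0.59 (0.56 to 0.61), just past 1.5-fold. It fell short of 1.5-fold when CPM was computed over listed genes only, and its 15 near-identical copies make its tags less certain. SPP1, encoding osteopontin, was at 1071 and 775 CPM, a log2 ratio of −0.47, and CCND1, encoding cyclin D1, at 93.0 and 112 CPM, a log2 ratio of 0.27. Those of MT2A, TGFB1 and VEGFA were 0.56, −0.16 and −0.17. The metalloproteinase genes MMP1, MMP3, MMP9 and MMP10 are not listed, and IL6 was at 0 in both libraries.

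The partners and competitors of MYC had a median log2 ratio of −0.17 over 14 genes, with 5 above 0, 9 below and 0 past 1.5-fold. The interval was above 0 in 3 (21.4%) and below 0 in 5 (35.7%), beside 22.8% and 31.5% over all genes. The ratio was above 0 in 42.9% of all genes. MAX, the obligate partner of MYC, was at 43.5 CPM in the non-treated and 53.1 CPM in the M2BPGi-treated library, a log2 ratio of 0.28 (0.17 to 0.41). MGA, a competitor for MAX, was at 17.4 and 12.1 CPM, a log2 ratio of −0.49. The directions of MAX and MGA were the same under each scaling. The log2 ratios of MLX, WDR5, MLXIP and MXD1 were 0.29, 0.15, −0.34 and −0.40.

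MYC targets were above 0 in 16 of 23 genes and below in 7, with a median of 0.11, beside 42.9% of all genes above 0. The interval was above 0 in 13 (56.5%) and below 0 in 4 (17.4%), beside 22.8% and 31.5% over all genes, and in 16 (69.6%) and 4 with the median of all genes set to 0, beside 27.7% and 26.0%. The interval of MYC itself spans 0. NOP16, a ribosome assembly factor, was at 96.0 CPM in the non-treated and 139 CPM in the M2BPGi-treated library, a log2 ratio of 0.52 (0.45 to 0.61). NME1, a nucleotide kinase, was at 262 and 364 CPM, a log2 ratio of 0.47. Those of EIF4A1, PPAN and CAD were 0.37, −0.20 and −0.24. TFRC, the transferrin receptor, fell from 515 to 338 CPM, a log2 ratio of −0.60 (−0.65 to −0.57), and it was short of 1.5-fold once the median or the trimmed mean of all genes was set to 0.

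Heat shock and handling genes, which can rise together with immediate-early genes when cells are disturbed, had a median of −0.13 over 10 genes, with 4 above 0, 6 below and 0 past 1.5-fold. The interval was above 0 in 3 and below 0 in 5 of the 10, beside 22.8% and 31.5% over all genes. HSPA1A was at 102 CPM in the non-treated and 78.9 CPM in the M2BPGi-treated library, a log2 ratio of −0.37, and its tags can be shared with the near-identical HSPA1B (−0.40). HSPB1 was at 271 and 377 CPM, a log2 ratio of 0.47. Those of DDIT3, DNAJA1 and HSP90AA1 were 0.36, 0.12 and −0.24.

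In GENCODE v29, JUN and JUNB have 1 exon and the other 7 listed members have at most 4, as have 24.4% of the 13271 genes found in that annotation. Over these genes, 963 with a single exon had a median log2 ratio of 0.01 and 12308 with more exons had −0.05. The median also went with transcript length, from 0.04 in the shortest of 5 length classes to −0.12 in the longest. Against the median of their own length class, JUND and FOSL1 each stood 0.19 higher, JUN 0.07 and MYC 0.05. On the lower side were FOS (−0.29), IER2 (−0.16), JUNB (−0.07) and EGR1 (−0.05). FOSL2, with the longest transcript of the members (6708 nt), was −0.03 away.

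Motifs of AUUUA after the stop codon, which mark many short-lived mRNAs, were found in 8 of the 9 members, all but IER2, and 31.6% of 11053 genes had none. MYC had 8.40 and FOS 6.20 per kb, beside a median of 1.61 over these genes. Genes with 5 or more such motifs had a median log2 ratio of −0.06 (3109 genes), and genes without any had −0.02 (3488 genes). These classes also differ in the length of the stretch after the stop codon, with medians of 2985 and 322 nt. The part of length in this difference was not tested. The density was above 1.61 per kb in 5 of the 9 members, FOS, FOSL2, JUN, JUNB and MYC, whose log2 ratios lie on both sides of 0.

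The nearest listed genes on either side of the members gave 18 neighbours, of which 12 had a mean level of at least 1 CPM. Of these, 5 were above 0 and 7 below, beside 42.9% of all genes above 0, with a median log2 ratio of −0.03. REEP2, next to EGR1, was the 1 neighbour of the 12 past 1.5-fold, beside 1.6% of all genes higher and 4.04% lower. It was at 2.12 CPM in the non-treated and 4.50 CPM in the M2BPGi-treated library, a log2 ratio of 0.82 (0.60 to 1.59). The interval of EGR1 spans 0. STX10, next to IER2, was at 57.7 and 40.5 CPM, a log2 ratio of −0.50. CCDC85B, next to FOSL1, was at 48.9 and 65.9 CPM, a log2 ratio of 0.42. Next to MYC, the long non-coding RNA PVT1 was at 4.49 and 3.58 CPM, a log2 ratio of −0.26 (−0.75 to 0.09). The log2 ratios of the other 8 were 0.17 (ETF1), 0.05 (PRDX2), 0.03 (PPP1CB), −0.01 (RAB3A), −0.05 (TMED10), −0.18 (C11orf68), −0.20 (MIR3188) and −0.30 (MYSM1).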

How the data were processed

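CAGE libraries were made from total RNA of PLC/PRF/5 cells. After removal of ribosomal reads, the authors aligned the tags with BWA and grouped 5′ ends with CAGEr. The deposited gene values are CPM with 2 decimals. A mouse genome is named in the methods, whereas the gene identifiers are human and the submitters' processing notes name hg19, BWA and HISAT2. Positions are therefore given only for RefSeq promoters.

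Tags were read back as whole multiples of the CPM of 1 tag (tolerance 0.005 CPM, the rounding), which held for 100% of values above 0 in both libraries, a step tested on simulated data. Within 0.1 of a tag, which is narrower than the rounding, 87.6% of values up to 20 tags were whole in the non-treated and 94.1% in the M2BPGi-treated library, so no count test was run. All tag numbers and intervals rest on this step. Log2 ratios used a pseudocount of 1 CPM and genes with a mean of at least 1 CPM. The members and lists were chosen with earlier results of these data known. Named are all members, their neighbours with a mean of at least 1 CPM and, per list, genes past 1.5-fold and the 3 highest and 3 lowest with a mean of at least 10 CPM. A gene selected in this way is not reported here. ALB, AFP, APOA1, TTR, GPC3, SRF, CREB1, NR4A3, PTPRC, EGR2, EGR3, the metalloproteinases and IL6 were named, and AUUUA motifs counted, after values were seen. Near-identical copies were sought with BLAST+ 2.17.0 among GENCODE v29 transcripts (first 500 nt, at least 100 nt at 95% identity). Python 3.11.15 with scipy 1.17.1 was used. Alternatives changed the pseudocount, the scaling, the filter on low values and the fold threshold.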

Additional observations from a re-analysis of the deposited data

How the results depend on the processing

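No paired analysis was possible because there is 1 library for each treatment, and neither can be left out. Of 130 alternative values, 129 stayed within the counting error or within 1.5 times the count, and 0 of 45 values of the members changed sign. For medians of several genes, the error used was the typical counting error of 1 gene. That is a loose standard, under which a median can change sign and still count as unchanged. The exception was JUND, whose log2 ratio was 0.24 with the median of all genes set to 0, a change made by that scaling itself. With pseudocounts of 0.1 and 5 CPM the log2 ratio of FOS ran from −0.51 to −0.10. The count of members past 1.5-fold was 0 in each direction under every alternative run, a lower and a higher fold threshold included. The median of the members ran from −0.08 to −0.02. Over the alternatives, medians ran from −0.12 to −0.05 for SRF and CREB regulators, −0.14 to −0.02 for other immediate-early genes, −0.17 to −0.08 for heat shock genes and 0.01 to 0.06 for AP-1 partners. The median of AP-1 targets changed sign, from 0.01 to −0.01, when genes with near-identical copies were left out. The trimmed mean, the lower threshold, and the medians without FOS or without such genes were chosen after seeing the data. The exact test and the TMM factors of edgeR were not run. With the median of all genes set to 0, BATF3 (named after its value was seen) and MT2A also passed 1.5-fold. Depth limits FOS and IER2 most.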
